A study of Mus musculus with 4 samples.

Results

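The thrombospondin and CCN genes encode matricellular proteins, which are secreted into the extracellular matrix and act on cells through receptors there rather than as structural fibres. The 10 genes were taken by symbol from the table of 32948 genes: Thbs1, Thbs2, Thbs3, Thbs4 and Comp for the thrombospondins, and Ccn1 to Ccn5 (also known as Cyr61, Ctgf, Nov, Wisp1 and Wisp2) for the CCN family. All 10 were found by their Ensembl identifiers. Of these, 9 passed the filter on low counts and entered the tests, and Thbs4 did not.

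The RNA came from dissociated cells of the ascending aorta and arch of Wnt1-Cre;Rosa26-mTmG mice, and every group carried both the Cre and the reporter. In this reporter, cells are red with tdTomato until Cre acts, and they and their descendants are then green with GFP. Wnt1-Cre is active in the neural crest, which gives rise to part of the arch smooth muscle. Cells sorted as GFP were set against cells sorted as tdTomato in 2 suspensions: a female one from 1 sample, and a male one pooled from 2. There was therefore 1 library for each of female GFP, male GFP, female tdTomato and male tdTomato, with no replicate of any combination. The labels used here give no age. The fluorescent proteins alone defined the sort, although all 4 libraries are labelled as vascular smooth muscle cells, and sex cannot be told apart from suspension and pooling.

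Thbs1 and Thbs2 form trimers, inhibit blood vessel growth and bind receptors such as Cd36 and Cd47, and Thbs1 can also activate latent TGF-beta. Thbs3, Thbs4 and Comp form pentamers and bind collagens, and Comp and Thbs4 are known from cartilage and tendon. Ccn1 and Ccn2 bind integrins and are targets of YAP and TAZ, the cofactors of TEAD transcription factors that respond to stretch and cell shape. In artery walls, CCN proteins are known as regulators of smooth muscle growth, migration and matrix production.

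Promoter sequence was looked up for the members in a RefSeq table of mouse build GRCm38.p6, an earlier build than the GRCm39 named for these data, and 4 of 10 matched. The 250 bases before the start of Ccn1, Thbs4 and Thbs2 are shown because these 3 genes, in the values that follow, were abundant in all libraries (Ccn1), high in 1 library (Thbs4) and near 0 in both GFP libraries (Thbs2). Each is on the minus strand and written 5′ to 3′ along the gene, at chr3:145649986-145650235 for Ccn1, chr13:92794819-92795068 for Thbs4 and chr17:14694263-14694512 for Thbs2. Capitals mark matches to a TEAD core (GGAATG), an AP-1 site (TGANTCA), a CArG box, a TATA box (TATAAA) or a GC box (GGGCGG) on either strand.
Ccn1: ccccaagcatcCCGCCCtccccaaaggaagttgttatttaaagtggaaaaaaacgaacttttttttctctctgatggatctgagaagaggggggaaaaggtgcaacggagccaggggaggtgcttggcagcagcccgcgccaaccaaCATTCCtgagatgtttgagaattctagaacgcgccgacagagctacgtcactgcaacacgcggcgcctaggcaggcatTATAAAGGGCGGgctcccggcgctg
Thbs4: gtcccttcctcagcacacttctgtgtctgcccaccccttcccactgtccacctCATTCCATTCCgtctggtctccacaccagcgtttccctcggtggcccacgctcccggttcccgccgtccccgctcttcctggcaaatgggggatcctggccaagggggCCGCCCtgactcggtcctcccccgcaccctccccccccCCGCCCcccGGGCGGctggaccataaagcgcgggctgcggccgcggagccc
Thbs2: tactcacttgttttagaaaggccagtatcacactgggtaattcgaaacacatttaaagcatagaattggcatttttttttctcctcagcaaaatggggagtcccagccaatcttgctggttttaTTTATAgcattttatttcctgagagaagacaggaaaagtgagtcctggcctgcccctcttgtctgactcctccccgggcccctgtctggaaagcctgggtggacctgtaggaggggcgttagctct
The Ccn1 window held a TEAD core on the opposite strand from 103 to 98 bases before the start, a TATA box 25 to 20 bases before it, and 2 GC boxes, the nearer of which adjoined the TATA box. The Thbs4 window held, on the opposite strand, 2 TEAD cores that overlap by 1 base, from 197 to 187 bases before the start, and 3 GC boxes. The Thbs2 window held a TATA box on the opposite strand and none of the other motifs. Among 32817 promoter windows of this length, 12.6% held a TEAD core, 12.4% a TATA box, 32.7% a GC box, 6.75% an AP-1 site and 1.47% a CArG box. These are matches of letters in a window and not measured binding sites.

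Estimated counts summed to 13678806 for female GFP, 10094326 for male GFP, 13911281 for female tdTomato and 12837282 for male tdTomato. At 10 counts or above there were 11942 and 9439 genes in female and male GFP, against 16136 and 15593 in female and male tdTomato. Levels are given as CPM, counts scaled to a common library size after TMM correction. Some genes abundant in tdTomato were near 0 in GFP: 4806 genes reached 20 CPM in each tdTomato library, and of these female GFP had no more than 3 counts for 5.16% and male GFP for 18.2%. The reverse was rarer, since of 3116 genes that reached 20 CPM in each GFP library, 0.257% and 0.417% were so low in female and male tdTomato. By counting error alone, 0 counts allowed levels of up to 0.238 CPM in female GFP, 0.319 in male GFP, 0.200 in female tdTomato and 0.216 in male tdTomato, the worth of 3 counts. Of 10 smooth muscle markers, 1 (Des) was lower in GFP by 2-fold or more in each suspension and none higher. Of all tested genes, 22.9% were so lower and 5.17% higher. Acta2 measured 6750 and 4083 CPM in female and male GFP, against 4884 and 3689 CPM in female and male tdTomato.

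**Figure D1:**
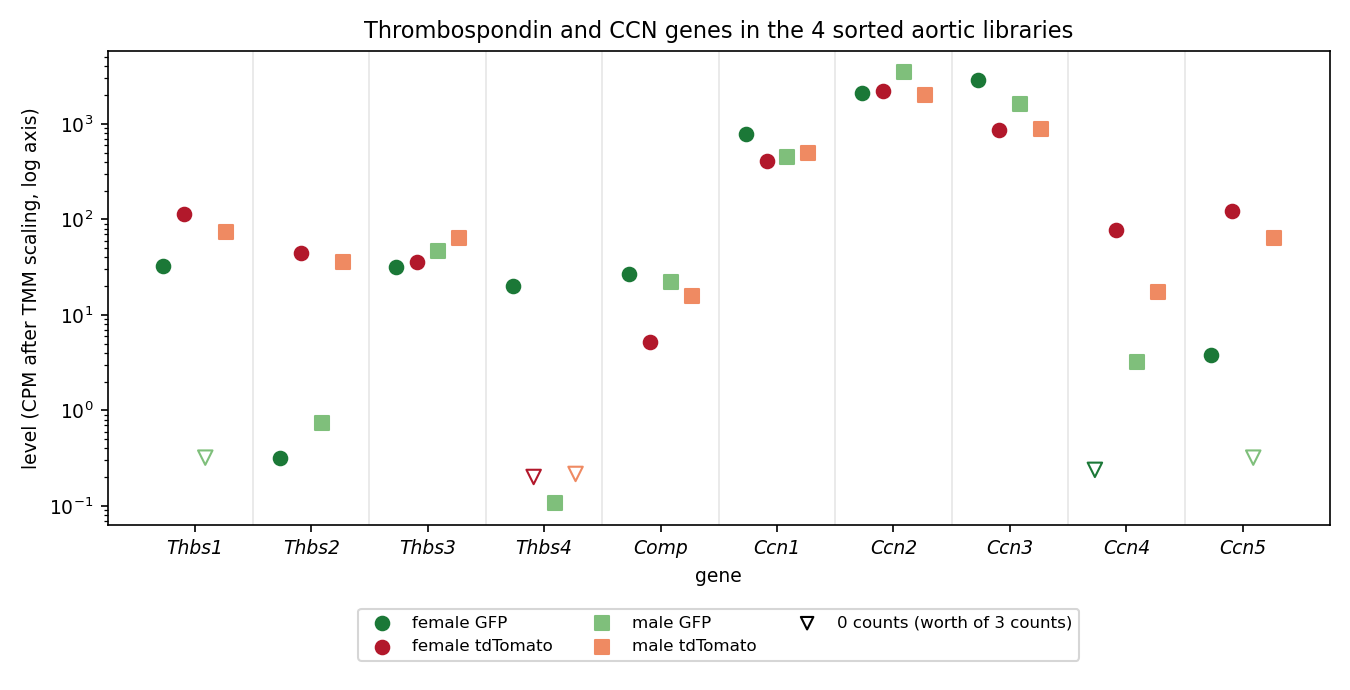
Level of each member in each library, in CPM on a log axis, with female libraries as circles and male ones as squares; an open triangle stands for 0 counts and is drawn at the worth of 3 counts. Ccn1, Ccn2 and Ccn3 were at or above 409.9 CPM in all 4 libraries, whereas Thbs1, Thbs2, Ccn4 and Ccn5 lay lower in both GFP libraries than in either tdTomato library.

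Ccn1, Ccn2 and Ccn3 were the abundant members in every library. Compared between genes per transcript length, as TPM (counts divided by exon length and scaled to the same total in each library), Ccn2 averaged 2496 ± 1009 TPM, Ccn3 1480 ± 693 and Ccn1 734 ± 129 over the 4 libraries (SD, n = 4). The SDs of Ccn2 and Ccn3 overlap, and Ccn3 stood above Ccn2 in female GFP and below it in the other libraries. By TPM rank among 25197 genes with a length, Ccn2 was 86th in female GFP, 23rd in male GFP, 59th in female tdTomato and 60th in male tdTomato. The other 7 genes followed far below, with Ccn5 at 72.1 ± 88.0 TPM, Thbs3 at 26.7 ± 10.8, Thbs1 at 25.5 ± 24.0, Comp at 16.6 ± 8.50, Ccn4 at 12.8 ± 18.6, Thbs2 at 8.43 ± 9.55 and Thbs4 at 3.54 ± 7.0. No neighbours among these 7 differed beyond their spread, and by coding length in place of exon length Ccn4 (23.8 TPM) came above Thbs3 (16.6), Thbs1 (16.3) and Comp (8.03).

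**Figure D2:**
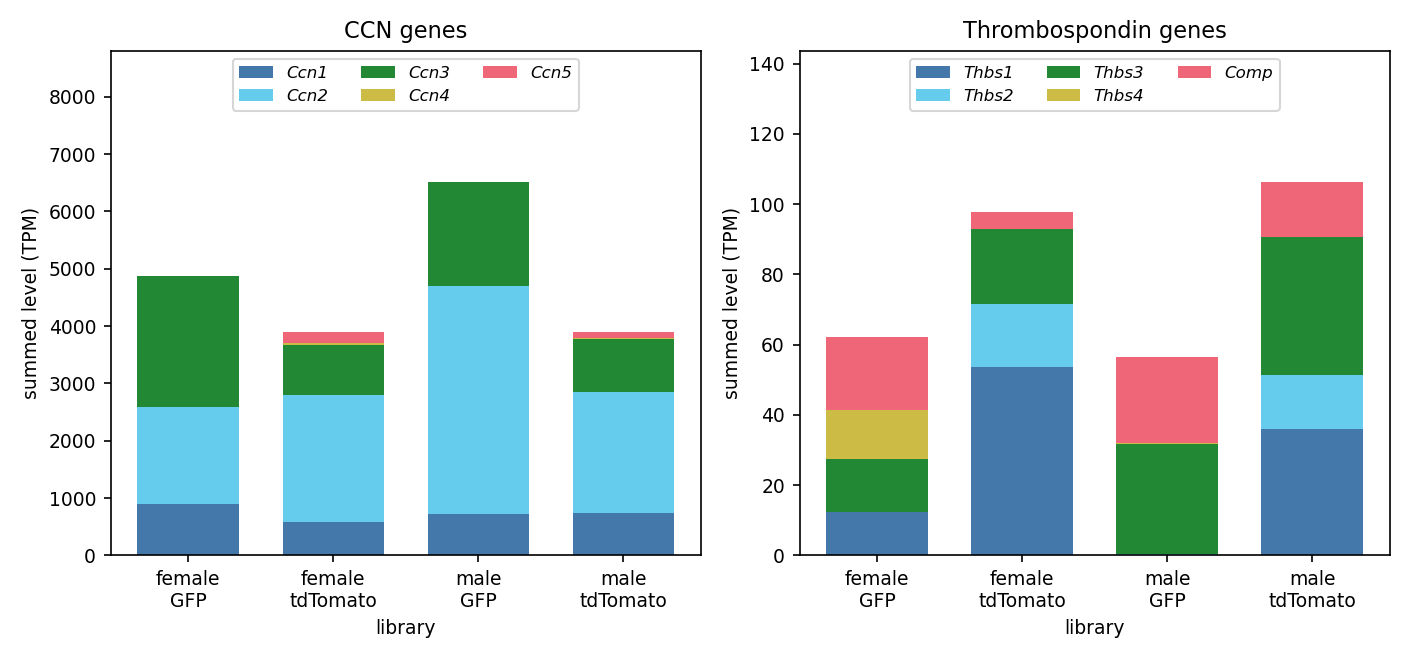
Summed level of the CCN genes (left) and thrombospondin genes (right) in TPM, stacked by gene, for each library. The CCN sum was higher in each GFP library than in its tdTomato partner and the thrombospondin sum was lower.

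As whole families, the CCN genes summed to 4879 and 6520 TPM in female and male GFP, against 3893 and 3889 TPM in female and male tdTomato. The thrombospondin genes summed to 62.2 and 56.5 TPM in female and male GFP, against 97.8 and 106 TPM in female and male tdTomato. The composition also differed. The trimer-forming Thbs1 and Thbs2 together gave 12.4 and 0.348 TPM in female and male GFP, against 71.7 and 51.3 TPM in female and male tdTomato. The pentamer-forming genes gave 49.9 and 56.2 TPM in female and male GFP, against 26.2 and 55.2 TPM in female and male tdTomato.

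The first comparison asked how neural crest lineage (GFP) cells differed from the other (tdTomato) cells of the same suspension. In each suspension Thbs1, Thbs2, Ccn4 and Ccn5 were lower in GFP by 2-fold or more, and no member was higher by 2-fold in each. Of all 15055 genes tested, 22.9% met that rule on the lower side and 5.17% on the higher side. Taken singly, the female suspension had the same 4 members lower (37.7% of all genes) and Ccn3 and Comp of the tested members higher (22.1%), and the male suspension had the same 4 lower (50%) and none higher (21.6%). The same 4 members had both GFP libraries below both tdTomato libraries, as did 29.3% of all genes, and Comp and Ccn3 had both GFP libraries above, as did 11.5%. With suspension as a block, edgeR's quasi-likelihood test called 0% of genes at an adjusted p of 0.05, and its smallest adjusted p was 0.577. Before adjustment 8.31% of genes were under 0.05 and lower in GFP, 0.292% were under it and higher, and Ccn3 was the one member among them. These p-values measure the spread between 2 suspensions that differ in sex. An exact permutation test of 2 libraries against 2 that ignores the pairing by suspension cannot go below p = 0.333. The median log2 ratio of all tested genes was -0.27 for the female suspension and -0.997 for the male one, and that of the 9 tested members was -0.16 and -0.45.

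**Figure D3:**
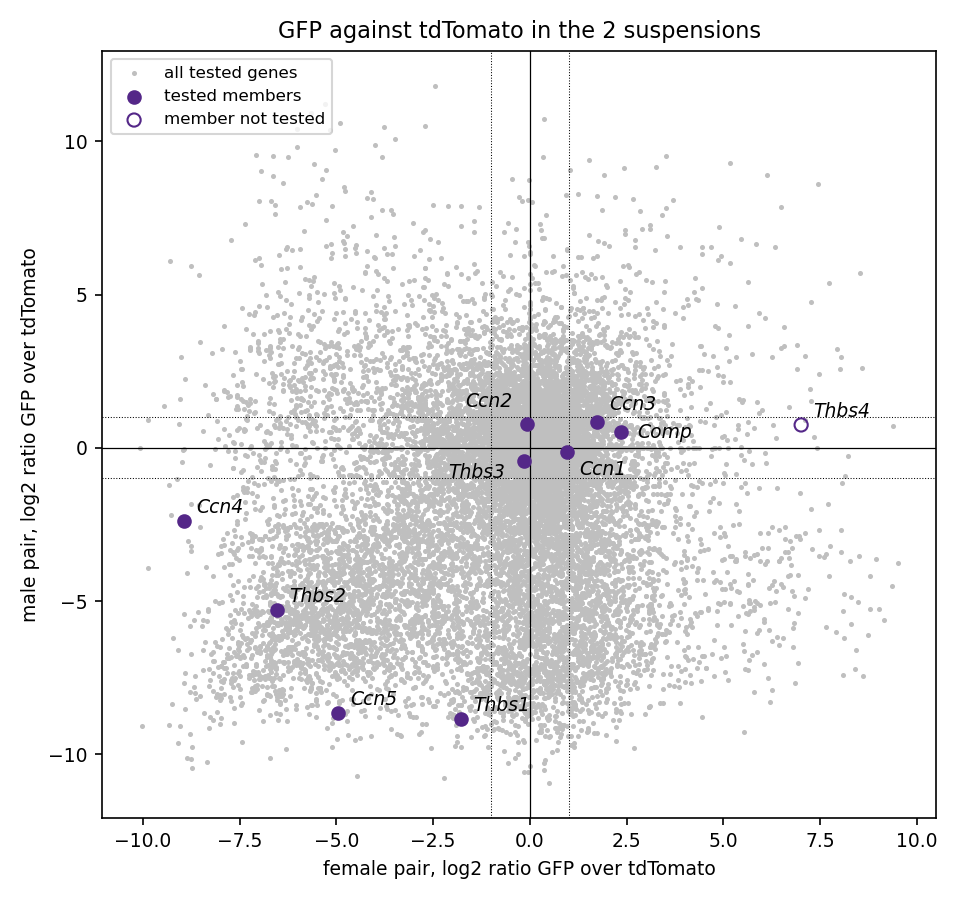
Log2 ratio of GFP over tdTomato (prior count of 2) in the female pair (horizontal) and the male pair (vertical) for all tested genes in grey and the members in purple; dotted lines mark 2-fold. Thbs1, Thbs2, Ccn4 and Ccn5 lie in the lower left corner, Ccn1, Ccn2 and Thbs3 lie within the dotted lines, and Ccn3 and Comp lie beyond the 2-fold line of the female axis but not of the male one.

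Of the trimer-forming thrombospondins, Thbs1 (ENSMUSG00000040152) measured 32.5 and 0 CPM in female and male GFP, against 113 and 73.2 CPM in female and male tdTomato. Female GFP was 3.47-fold lower than its partner (95% counting interval 3.11 to 3.87), and male GFP, with 0 counts, at least 186-fold lower. The size of the difference thus rested on the male GFP library, in which 11.7% of the genes that reached 20 CPM in each tdTomato library also had 0 counts. On the log2 scale the ratio averaged -5.33 ± 5.00 (SD over the 2 pairs), and edgeR gave an adjusted p of 1. Thbs2 (ENSMUSG00000023885), which also clears matrix proteases together with Lrp1, measured 0.317 and 0.745 CPM in female and male GFP (4 and 7 counts), against 44.0 and 35.4 CPM in female and male tdTomato. Thbs2 was low in both GFP libraries alike. Female GFP was 139-fold lower (53.9 to 511) and male GFP 47.5-fold lower (22.9 to 119) than the partner library. The log2 ratio averaged -5.92 ± 0.88 (SD over the 2 pairs), and edgeR gave an adjusted p of 0.636. Thbs2 was the member below 1 CPM in each GFP library that reached 20 CPM in each tdTomato library, as did 189 genes or 1.26% of all genes tested. Only the 4806 genes that reached 20 CPM in each tdTomato library could meet that rule.

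Among the growth-modulating CCN genes with low levels in GFP, Ccn5 (ENSMUSG00000027656) encodes the family member that lacks the C-terminal domain and slows smooth muscle growth. It measured 3.81 and 0 CPM in female and male GFP, against 123 and 63.5 CPM in female and male tdTomato. Ccn5 was 32.4-fold lower in female GFP (24.3 to 44.1) and at least 161-fold lower in male GFP, each against its partner. Its log2 ratio averaged -6.81 ± 2.62 (SD over the 2 pairs), and edgeR gave an adjusted p of 0.610. Ccn4 (ENSMUSG00000005124), named as a gene induced by Wnt1, measured 0 and 3.19 CPM in female and male GFP, against 77.3 and 17.4 CPM in female and male tdTomato. Female GFP was at least 264-fold lower and male GFP 5.45-fold lower (3.72 to 8.25) than the partner. Its log2 ratio averaged -5.67 ± 4.64 (SD over the 2 pairs), and edgeR gave an adjusted p of 1. Both genes were lower in GFP in both suspensions, with 0 counts in a different GFP library for each. In these bulk libraries fewer cells of a type and less RNA per cell cannot be told apart. DESeq2, on the same pairs, called 7.36% of all genes lower in GFP and 0.325% higher. It called Thbs2 (adjusted p = 0.0249), Ccn4 (0.0470) and Ccn5 (0.0140) and not Thbs1 (0.0874), whereas limma-voom called 0% of genes. Over the other 9 alternatives, edgeR and limma-voom adjusted p-values were 0.0527 to 1.00 for Thbs2, 0.116 to 1 for Ccn4 and 0.0505 to 1.00 for Ccn5.

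Markers of other cell types also differed between the colours. Beside each count of markers here stand the shares of all tested genes, 22.9% lower and 5.17% higher by at least 2-fold in both pairs. Of 12 endothelial markers, 10 were lower in GFP by 2-fold or more in each suspension. Of these 10, Kdr and Egfl7 were at 0 counts in female and in male GFP, whereas Pecam1 still measured 15.2 and 11.8 CPM there. Flt1, among the 3 most abundant of the list, was higher in GFP in both pairs, by 0.42 and 0.75 on the log2 scale. The 12 endothelial markers summed to 109 and 608 CPM in female and male GFP, against 506 and 348 CPM in female and male tdTomato, with Erg alone at 549 CPM in male GFP. The median log2 ratio of the endothelial list was -6.27 for the female suspension and -4.76 for the male one, and that of the fibroblast list was -1.21 and -5.30. Of 10 adventitial fibroblast markers, 4 (Pdgfra, Col14a1, Ly6a and Clec3b) were at least 2-fold lower in both pairs and none higher, and Pdgfra had 0 counts in female GFP. With library totals 6 of these fibroblast markers were so lower, and with DESeq2 size factors 3. The 3 most abundant of this list, Dcn, Lum and Dpt, were not low in female GFP. Their log2 ratios were 0.16, 0.68 and -0.05 in the female pair, but -3.87, -7.06 and -10.6 in the male pair. Pi16 went the opposite way, from -1.1 in the female pair to 0.52 in the male one. The fibroblast sum was 3050 and 298 CPM in female and male GFP, against 2919 and 3349 CPM in female and male tdTomato. Of 7 tested macrophage markers, 5 were lower by 2-fold or more in each pair, with sums of 30.7 and 0.639 CPM in female and male GFP, against 28.3 and 152 CPM in female and male tdTomato. Of 3 tested platelet markers, read because platelets store Thbs1, 1 (Pf4) was lower in GFP by 2-fold or more in each pair, at 0 CPM in female and in male GFP, against 7.82 and 8.77 CPM in female and male tdTomato. Itga2b measured 0 and 14.8 CPM in female and male GFP, against 1.14 and 0.431 CPM in female and male tdTomato, and so was higher in GFP in the male pair. Gp1bb measured 0 and 5.86 CPM in female and male GFP, against 5.21 and 7.62 CPM in female and male tdTomato. The platelet sums were 0.0793 and 20.9 CPM in female and male GFP, against 18.4 and 16.8 CPM in female and male tdTomato. The part of these cell types in the member differences was not tested.

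Ccn3 and Comp were the members on the GFP side in both suspensions. Ccn3 (ENSMUSG00000037362), which restrains smooth muscle proliferation in mouse arteries, measured 2866 and 1602 CPM in female and male GFP, against 866 and 895 CPM in female and male tdTomato. The tdTomato libraries were close together and the GFP libraries lay above both. Female GFP exceeded its partner 3.31-fold (3.24 to 3.38) and male GFP 1.79-fold (1.75 to 1.83), and the log2 ratio averaged 1.28 ± 0.63 (SD, n = 2 pairs). Its edgeR p was 0.0280 before and 0.577 after adjustment. The ratio of Ccn3 to Ccn2 in TPM was 1.36 and 0.459 in female and male GFP, against 0.393 and 0.442 in female and male tdTomato, so that the female GFP library alone held more Ccn3 than Ccn2. Comp (ENSMUSG00000031849) measured 26.9 and 22.4 CPM in female and male GFP, against 5.14 and 15.7 CPM in female and male tdTomato. Female GFP exceeded its partner 5.23-fold (4.07 to 6.79) and male GFP 1.43-fold (1.17 to 1.73), with a log2 average of 1.43 ± 1.30 (SD over the 2 pairs) and an adjusted p of 1 from edgeR.

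After TMM scaling, Ccn1 and Ccn2 went opposite ways in the 2 suspensions, and Thbs3 was slightly lower in GFP in each. Ccn1 (ENSMUSG00000028195), whose promoter window held the TEAD core shown above, measured 792 and 447 CPM in female and male GFP, against 409.9 and 492 CPM in female and male tdTomato. Ccn2 (ENSMUSG00000019997), a fibrosis-associated CCN protein, measured 2105 and 3478 CPM in female and male GFP, against 2197 and 2021 CPM in female and male tdTomato. Ccn1 was high in female GFP alone and Ccn2 in male GFP alone, and for both the GFP and tdTomato libraries overlapped. The mean log2 ratios were 0.41 ± 0.77 for Ccn1 and 0.36 ± 0.60 for Ccn2 (SD over the 2 pairs), both with an adjusted p of 1 from edgeR. Thbs3 (ENSMUSG00000028047), the most evenly expressed thrombospondin, measured 31.7 and 46.4 CPM in female and male GFP, against 35.4 and 63.3 CPM in female and male tdTomato. It was lower in GFP by 0.16 and 0.45 on the log2 scale in the female and male pair, less than the 0.55 and 0.84 by which the female library lay under the male one within GFP and tdTomato. In the M21 annotation, 318 exon bases of Thbs3 are shared with Mtx1 on the other strand and 665 of Ccn2 with Gm15270, and this library kit does not mark strand. Gm15270 had 13.1 to 117 counts, few beside those of Ccn2.

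Thbs4 (ENSMUSG00000021702) was detected beyond a single count in 1 library. It had 254 counts (20.2 CPM) in female GFP and 1 count (0.106 CPM) in male GFP, against 0 counts in both tdTomato libraries. Female GFP exceeded its partner at least 81.2-fold, and between the male libraries its single count allows no direction. Thbs4 did not enter the tests, since the filter asks for enough counts in 2 libraries. Of 10 cartilage markers, all but Acan were highest in the same library, by very different margins. Acan, the cartilage proteoglycan, measured 17.6 and 66.8 CPM in female and male GFP, against 11.2 and 23.0 CPM in female and male tdTomato. Sox9, a transcription factor of cartilage that other cells also use, measured 150 and 0.213 CPM in female and male GFP, against 76.6 and 74.4 CPM in female and male tdTomato. Several others, Chad, Col9a1 and Col2a1 among them, were under 1 CPM outside female GFP. Chad, a cartilage matrix protein of the leucine-rich type, measured 350 CPM in female GFP and had 0 counts in the other 3 libraries. Col9a1 measured 133 and 0.532 CPM in female and male GFP, against 0.0668 and 0.0719 CPM in female and male tdTomato, and Col2a1 measured 89.9 and 0.958 CPM in female and male GFP, against 0.401 and 0.719 CPM in female and male tdTomato. The 10 cartilage markers summed to 847 and 83.9 CPM in female and male GFP, against 97.1 and 98.9 CPM in female and male tdTomato, and Matn3 had 0 counts in both tdTomato libraries. Of 5 such markers tested, 1 (Col11a2) was higher in GFP by 2-fold or more in each pair, as were 5.17% of all tested genes. Of the tendon markers, Scx measured 12.7 and 6.39 CPM in female and male GFP, against 0.134 and 7.48 CPM in female and male tdTomato, and Fmod was lower in GFP in both pairs. Comp, another cartilage matrix gene, was also highest in female GFP (26.9 CPM) but was present in every library, with 22.4 CPM in male GFP. Of the cartilage list, Acan (66.8 CPM) and Col11a2 (15.0 CPM) were present in male GFP too, while Chad was at 0 there. The part of cartilage cells in the Thbs4 level was not tested. Chad, Col9a1 and Matn3 were named after their values were seen.

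**Figure D4:**
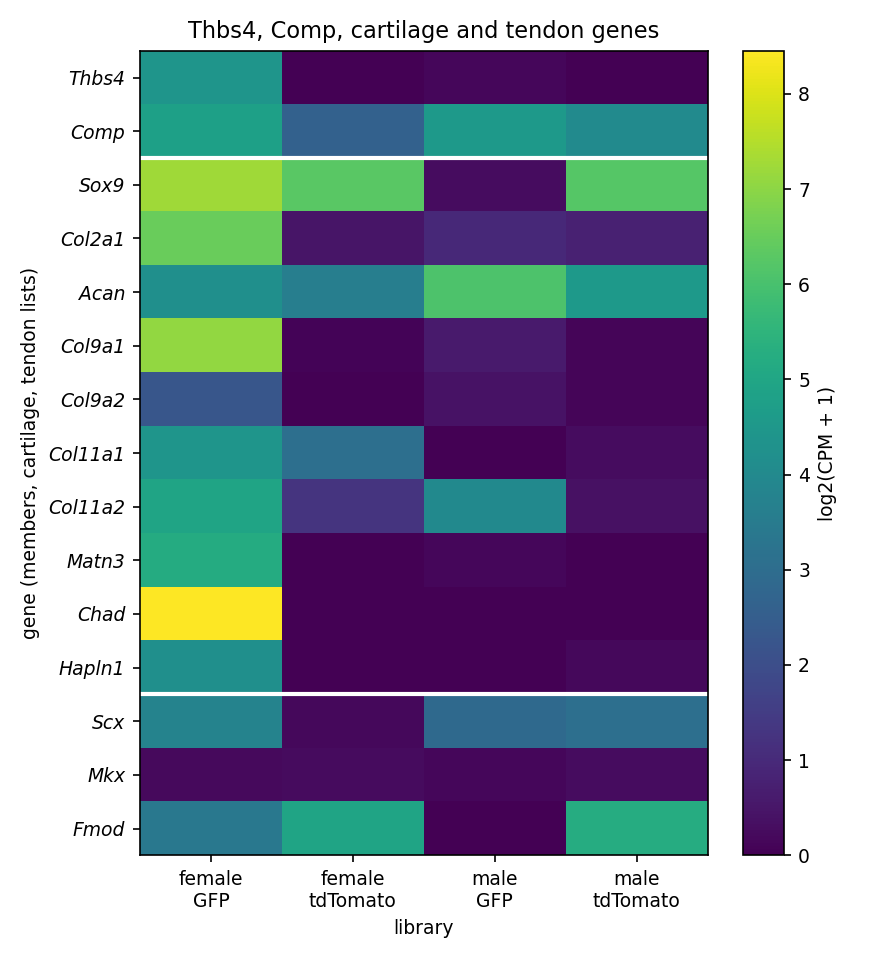
Thbs4 and Comp (top), 10 cartilage markers (middle) and 3 tendon markers (bottom) in each library, coloured by log2(CPM + 1). Thbs4, Chad, Col9a1, Col2a1, Matn3 and Hapln1 were bright in female GFP and near 0 in the other 3 libraries, whereas Comp was present in all.

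Genes of the surrounding pathways were read from lists chosen by function, and the edgeR test called no gene of them. Of 19 tested receptors of thrombospondins and CCN proteins, 4 (Cd36, Itgb3, Itga4 and Sdc1) were lower in GFP by 2-fold or more in each pair. By the same rule 1 (Notch1) was higher, although its male pair rested on 5 counts in male GFP against 0 in male tdTomato. Of all tested genes, 22.9% were so lower and 5.17% higher, so the receptor count lower was near the general share. With library totals 6 receptors were so lower, and with DESeq2 size factors 3. General shares for those scalings are not given here. The most abundant receptor, the integrin subunit Itgb1, measured 651 and 597 CPM in female and male GFP, against 466 and 462 CPM in female and male tdTomato. Cd36, the thrombospondin receptor of endothelium, macrophages and fat cells, measured 0.0793 and 0 CPM in female and male GFP, against 20.6 and 42.6 CPM in female and male tdTomato, so that it lay on the same side as Thbs1 and Thbs2. Cd47, the widely expressed thrombospondin receptor, measured 143 and 2.56 CPM in female and male GFP, against 247 and 197 CPM in female and male tdTomato. Calr, a chaperone that also takes part in thrombospondin signalling, had log2 ratios of -0.52 and -0.07 in the female and male pair. The medians of the receptor list were -0.79 and -0.20 on the same scale, beside -0.27 and -0.997 over all tested genes.

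**Figure D5:**
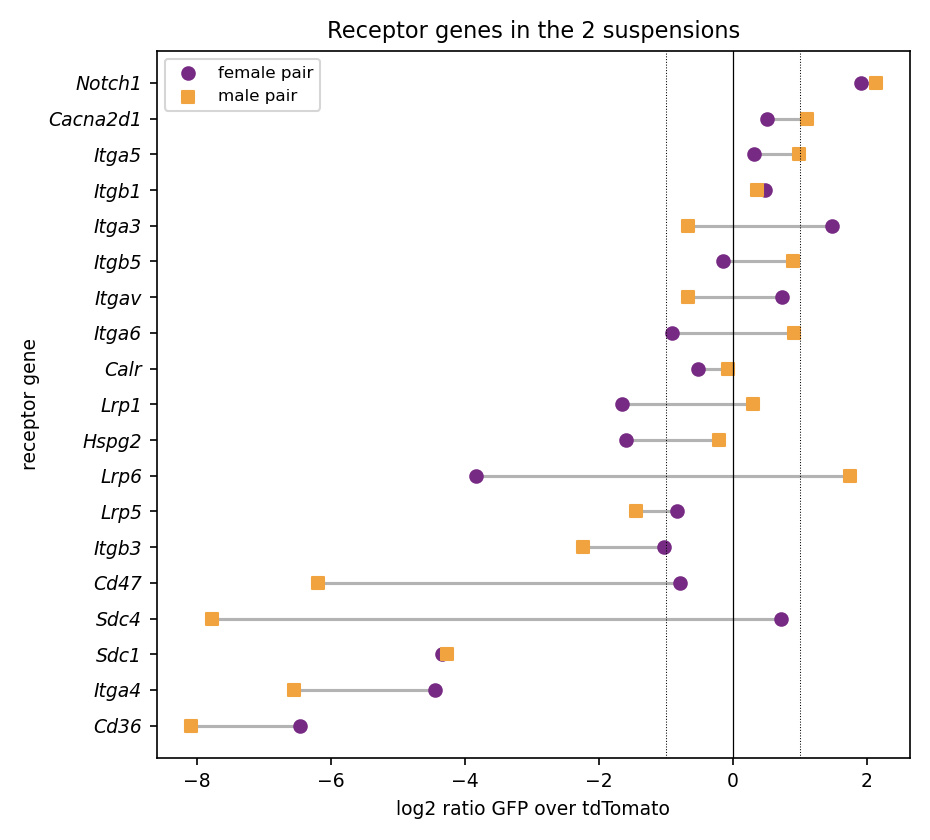
Log2 ratio of GFP over tdTomato (prior count of 2) for each tested receptor gene, with the female pair as circles and the male pair as squares joined by a line; dotted lines mark 2-fold. Cd36, Itga4, Sdc1 and Itgb3 lay left of the lower line in both pairs and Notch1 right of the upper line. Sdc4, Cd47 and Lrp5 lay left of the lower line in the male pair alone.

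Of the Hippo pathway and TEAD list, 1 of 14 tested genes (Sav1) was at least 2-fold lower in both pairs and none higher. Of all tested genes, 22.9% were so lower and 5.17% higher, shares that stand beside each list count here. The Hippo list had median log2 ratios of -1.42 and 0.22 in the female and male pair. Wwtr1, which encodes TAZ, measured 67.9 and 160 CPM in female and male GFP, against 165 and 82.5 CPM in female and male tdTomato, and Yap1 measured 37.5 and 0.958 CPM in female and male GFP, against 14.2 and 46.4 CPM in female and male tdTomato. Both thus changed sides between the suspensions, Wwtr1 one way and Yap1 the other. Of 16 tested YAP and TAZ targets other than the members, 4 (Ankrd1, F3, Dock5 and Ptpn14) were at least 2-fold lower in both pairs and none higher. With DESeq2 size factors, 1 was higher. The medians of this list were -0.63 and -1.01. Ankrd1, a target often read together with Ccn1 and Ccn2, measured 0.0793 and 0 CPM in female and male GFP, against 26.1 and 16.9 CPM in female and male tdTomato, unlike either member. Lats2, another target, measured 65.9 and 361 CPM in female and male GFP, against 178 and 86.0 CPM in female and male tdTomato. Among 15 genes of the TGF-beta list, 1 (Lrrc32) was lower and 1 (the receptor Tgfbr1) higher in both pairs, with Tgfbr1 at 718 and 352 CPM in female and male GFP, against 299 and 115 CPM in female and male tdTomato. The medians of the TGF-beta list were -0.17 and 0.30.

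Immediate early genes can be induced by tissue digestion, and Ccn1, Ccn2 and Thbs1 are known to respond in the same way. Of 21 tested, 2 (Egr2 and Egr3) were lower in GFP by 2-fold or more in each pair and none higher. Of all tested genes, 22.9% were so lower and 5.17% higher. The 21 genes summed to 27838 and 15134 CPM in female and male GFP, against 17465 and 18823 CPM in female and male tdTomato. The list medians were 0.50 and -0.79 (log2) in the female and male pair. After TMM scaling, Ccn1 followed the order of the sum and medians, higher in female GFP than in its partner and lower in male GFP than in its partner. Its log2 ratio in the male pair was only -0.14, a sign that may not hold with DESeq2 size factors. Ccn2 did not follow that order, and Thbs1 was lower in GFP in both pairs (log2 ratios of -1.79 and -8.87). Fos, the most abundant gene of the list, did not follow that order either, being higher in GFP in both pairs (0.74 and 0.23). The part of the digestion response in these levels was not tested. Of 7 tested proteases that cleave or bind these proteins, 3 (Adamts4, Adamts12 and Mmp3) were lower in GFP by 2-fold or more in each pair. None was higher, and the same shares of all tested genes (22.9% and 5.17%) stand beside these counts. Adamts1 measured 685 and 946 CPM in female and male GFP, against 766 and 1012 CPM in female and male tdTomato. The protease medians were -0.45 and -5.57.

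The second comparison set the female suspension against the male one within each colour. No member was at least 2-fold apart in the same direction in both colours, while 10.3% of tested genes were at least 2-fold higher and 6.28% at least 2-fold lower in the female libraries of both. The edgeR test with colour as a block called 0% of genes, 1.72% being under 0.05 before adjustment, and gave an adjusted p of 1 for every tested member. The members differed mostly between the GFP libraries. Thbs1, Ccn5 and the untested Thbs4 were higher in female than in male GFP by 2-fold or more and Ccn4 lower, as were 40.4% and 27.9% of all tested genes. Thbs1 was at least 82.4-fold higher in female GFP than in male GFP, and Ccn4 at least 10.3-fold lower. Thbs4 was 189-fold higher in female GFP, with an interval of 33.7 to 7505 that reflects the single count in male GFP. Between the tdTomato libraries, Ccn4 was 4.44-fold higher in female (3.87 to 5.12) and Comp 3.05-fold lower in female (2.34 to 4.00), and the other 7 members with counts there were within 2-fold. At least 2-fold differences between the tdTomato libraries were found for 21.6% of genes toward female and 20.6% toward male.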

How the data were processed

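The data were the authors' deposited table of expected counts, that is, estimated read counts per gene with up to 2 decimals and no scaling between libraries, for 4 SMART-Seq v4 libraries. Between 59.4% and 69.1% of the values were whole (tolerance 1e-06). Polyadenylated RNA was primed with oligo(dT), amplified and cut with Tn5, per the labels' protocols. The tools named per the submitters' processing notes are StringTie, HISAT2 and fastp, with build GRCm39, and the counting program was not given in the sources used here.

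Symbols (76.4% of genes matched) and lengths (union of exons) came from GENCODE M21 on an earlier build, and were used without coordinates. Counts were rounded. CPM used library totals with TMM factors of 0.922 and 0.931 for female and male GFP, against 1.08 and 1.08 for female and male tdTomato. Log2 ratios used a prior count of 2. Folds used no prior count, with exact 95% binomial intervals. Against 0 counts, the lower end of that interval is given as the least fold. Levels at 0 counts used a floor of 3 counts. There are no molecular identifiers, so intervals and floors cover counting error only. edgeR 4.0.16 (R 4.3.3) tested 15055 genes kept by filterByExpr at a minimum of 10 counts, with suspension as a block and 1 residual degree of freedom, adjusted by Benjamini-Hochberg. The 2 libraries of a pair share a suspension per the series' design text, which is where the pairing comes from. Alternatives included limma-voom (limma 3.58.1) and DESeq2 1.42.0. The scripts were tested on simulated data. The members, 19 lists and alternatives were chosen with earlier results of these data known, and 24 of 210 list entries without a match were not analysed here. Of each list the 3 most abundant tested genes could be named, and list genes named beyond these were chosen after their values were seen. For the 3 most abundant members, the 3 nearest genes in pattern were named.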

Additional observations from a re-analysis of the deposited data

Results flagged for a closer look

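After TMM scaling, Ccn1 and Ccn2 were on opposite sides of their tdTomato partners in the 2 suspensions, with counting intervals that exclude equality in both. Those intervals leave out error in the scaling. The log2 ratio of GFP over tdTomato for Ccn1 was 0.95 between the female libraries and -0.14 between the male ones. For Ccn2 it was -0.062 between the female libraries and 0.78 between the male ones. With DESeq2 size factors the mean log2 ratio rose from 0.41 to 0.59 for Ccn1 and from 0.36 to 0.54 for Ccn2. The median of all tested genes rose from -0.27 to -0.14 in the female pair and from -0.997 to -0.78 in the male one. The signs of Ccn1 in the male pair and Ccn2 in the female pair may thus not hold under that scaling. With 1 pair per suspension the difference between the suspensions was not tested.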

How the results depend on the processing

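For GFP against tdTomato, edgeR with other scalings, without the filter, with no replicate block for suspension and with each library left out called 0 genes, as did limma-voom, while DESeq2 called 1157. Since edgeR called 0 genes with the block and without it, its calls cannot show an effect of the pairing by suspension. Before adjustment, 1983 genes were under 0.05 in edgeR without the block. With the block, 1251 were under 0.05 and lower in GFP, and 44 were under it and higher. Fits with a library left out had no block, and the lone library of a colour or sex was assumed to vary like the others. For female against male, edgeR without the filter called 2 genes and DESeq2 140, and the other alternatives 0. The number of members at least 2-fold higher in GFP in both pairs, 0, became 1 with DESeq2 size factors and 2 with the female pair alone. The number lower stayed within 1.5 times of 4 under the alternatives run. With libraries left out, log2 ratios of GFP over tdTomato ranged from -0.0075 to 0.82 for Ccn1, -0.0015 to 0.72 for Ccn2 and -0.72 to 0.11 for Thbs3. The other ranges were -9.18 to -1.48 for Thbs1 (-1.48 without male GFP), -6.38 to -5.46 for Thbs2, -7.87 to -3.46 for Ccn4 (-3.46 without female GFP), -9.14 to -4.48 for Ccn5 (-4.48 without male GFP), 0.86 to 1.70 for Ccn3 and 0.64 to 2.22 for Comp. For Thbs4 they ranged from 0.75 to 7.01, the lowest being without female GFP, where a single count remained. Log2 ratios of female over male changed sign with no replicate block for Thbs2 (0.29) and Ccn4 (1.91). With libraries left out they ranged from -3.58 to 2.96 for Thbs2, -5.61 to 3.34 for Ccn4, -0.37 to 6.64 for Thbs4, -0.19 to 0.76 for Ccn1, -0.47 to 1.26 for Ccn3, -1.83 to 0.52 for Comp, -0.27 to 8.59 for Thbs1, -0.69 to 0.090 for Ccn2 and -1.52 to 7.14 for Ccn5. The cause was not tested. Ccn1 averaged 584 TPM by the longest transcript and 483 by coding length, which also gave 23.8 TPM for Ccn4, 16.6 for Thbs3, 16.3 for Thbs1, 8.03 for Comp and 1.52 for Thbs4. Scaling by library totals moved the median of all genes to -0.48 and -1.20 (log2) in the female and male pair, and DESeq2 size factors to -0.14 and -0.78.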

Other observations

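The genes closest in pattern to the 3 abundant CCN members were found among 3266 genes that averaged at least 50 CPM, leaving out predicted genes without a name, by the distance of centred log2 CPM over the 4 libraries. They describe these libraries only. For Ccn2 they were Itih4, Rpsa and Myom1, and Rpsa, a laminin receptor and ribosomal protein, measured 903 and 1494 CPM in female and male GFP, against 1022 and 928 CPM in female and male tdTomato. For Ccn3 they were Zfas1, Rere and Papola. Zfas1, a noncoding host of small nucleolar RNAs, measured 438 and 239 CPM in female and male GFP, against 129.9 and 137 CPM in female and male tdTomato. For Ccn1 they were Ndufb6, Crebbp and Ndufs5, among which Crebbp, a histone acetyltransferase, measured 347 and 206 CPM in female and male GFP, against 181 and 205 CPM in female and male tdTomato.

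Mtx1, which shares exon bases with Thbs3 on the other strand, had 40 and 10 counts in female and male GFP, against 257 and 255 in female and male tdTomato, while Thbs3 had 399 and 436 counts in female and male GFP, against 530 and 881 in female and male tdTomato.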
